A study of Mus musculus with 52 samples.

Results

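The promoters of replication-dependent histone genes were examined by calibrated ATAC-seq in mouse embryonic stem cells (mESCs). Members were chosen by gene symbol alone, as every promoter in the tables whose RefSeq identifier maps to a symbol of the form Hist1h to Hist4h, or to the newer forms H1f1 to H1f6, H2ac, H2bc, H3c and H4c followed by a number. This gave 9 of 20633 promoters. The annotation holds 67 protein-coding genes that meet the same rule, and the others are not analysed here. By family, the tables held 3 of 6 linker histone H1 genes, 2 of 18 H2A genes, 2 of 18 H2B genes, 0 of 12 H3 genes and 2 of 13 H4 genes. By cluster they held 5 of 54 genes on chromosome 13, 3 of 10 on chromosome 3 and 1 of 1 on chromosome 6, with 0 of 2 on chromosome 11. What follows therefore concerns these 9 promoters and does not stand for the gene family.

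Replication-dependent histone genes supply the histones that package newly copied DNA. They lie in clusters, are transcribed mainly in S phase, and give mRNAs that end in a stem-loop in place of a poly(A) tail. NPAT switches the clusters on within nuclear bodies called histone locus bodies, HINFP binds H4 promoters, and SLBP binds the stem-loop. ATAC-seq, in which the Tn5 transposase inserts adapters where DNA is accessible, reads the openness of the promoter and not the amount of mRNA. KDM2A and KDM2B bind non-methylated CpG dinucleotides through a ZF-CxxC domain, and their long forms also carry a JmjC domain that demethylates histone H3 lysine 36.

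The experiment used 4 mESC lines that carry a tamoxifen-inducible CRE from the ROSA26 locus, each sampled untreated and after 96 h in 800 nM 4-hydroxytamoxifen. On treatment Kdm2a/b-JmjC fl/fl cells lose the long forms of both proteins, which hold the JmjC domain, and keep the short forms, Kdm2a/b-CXXC fl/fl cells lose the ZF-CxxC domain of both, Kdm2a-CXXC fl/fl cells lose it from KDM2A only, and it is removed from KDM2B only in the Kdm2b-CXXC fl/fl line. Values given for the 4 lines in a row follow this order. The JmjC line was derived from mice, and the Kdm2a-CXXC and Kdm2a/b-CXXC lines were made by genome editing and are each 1 homozygous clone, the latter from the Kdm2b-CXXC line. There were 26 ATAC libraries, with 4 untreated and 4 treated in Kdm2a/b-CXXC and 3 of each in the other lines, described by the study as biological replicates, and Drosophila cells mixed in gave the scale of each library. In these lines CRE activation and tamoxifen itself cannot be told apart from loss of the proteins or domains, because each line had its own untreated cells as the only control. Nor can fewer cells with an open promoter be told apart from a less open promoter in every cell.

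Each promoter was an interval of 400 bp, so levels are per equal length, while Tn5 sequence preference and mappability at each interval were not corrected for. The annotated start sites lay 0 to 30 bp from the interval centres. Coordinates are given 1-based in mm10 (GRCm38). On chromosome 13 were H1f5 (Hist1h1b, NM_020034, 21780426 to 21780825, minus strand), H2bc6 (Hist1h2be, NM_001177653, 23620895 to 23621294, minus strand), H1f6 (Hist1h1t, NM_010377, 23695611 to 23696010, plus strand), H1f1 (Hist1h1a, NM_030609, 23763468 to 23763867, plus strand) and H2ac1 (Hist1h2aa, NM_175658, 23934262 to 23934661, plus strand). H1f5 lay 1.84 Mb from H2bc6, and the other 4 followed each other at 67.9 to 171 kb. On chromosome 3 were H2ac21 (Hist2h2ab, NM_178213, 96219716 to 96220115, plus strand), H4c14 (Hist2h4, NM_033596, 96263118 to 96263517, minus strand) and H2bc18 (Hist2h2bb, NM_175666, 96269500 to 96269899, plus strand). The start sites of H4c14 and H2bc18 were 6383 bp apart on opposite strands. H4f16 (Hist4h4, NM_175652, 136804232 to 136804631, minus strand) was alone on chromosome 6 and entered by its older symbol. No member intervals overlapped, and each interval spans a start site with the first bases of its gene.

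The members differ in use. H1f1 and H1f5 encode somatic linker histones, which bind where DNA enters and leaves the nucleosome. H2ac21, H2bc6, H2bc18, H4c14 and H4f16 encode core histones. H1f6 encodes H1t and H2ac1 encodes a testis H2A, both known from male germ cells rather than from somatic cells. H2ac1 shares a divergent arrangement with the testis H2B gene H2bc1, whose start site lay 281 bp away and outside the interval. H2ac21 faces H2ac20 at 995 bp.

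The 150 bases upstream of the start site are shown for the 8 members found in the RefSeq promoter sequences (GRCm38.p6), because the elements of histone promoters lie there and because the levels below differ between promoters that share them. Each is written 5′ to 3′ on the strand of its gene. Capitals mark 5 motifs searched on both strands: the TATA box as TATAAA, the pentamer CCAAT, the octamer as ATTTGCAT, the H1 box as AAACACA and the GC box as GGGCGG. On the opposite strand the pentamer reads as ATTGG, the octamer as ATGCAAAT and the GC box as CCGCCC. The linker histone promoters come first, then H2A, H2B and H4.
H1f1, chr13:23763518-23763667, plus strand: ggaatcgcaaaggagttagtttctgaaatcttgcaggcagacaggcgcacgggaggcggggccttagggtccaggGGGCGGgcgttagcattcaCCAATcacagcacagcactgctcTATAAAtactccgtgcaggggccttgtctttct
H1f5, chr13:21780626-21780775, minus strand: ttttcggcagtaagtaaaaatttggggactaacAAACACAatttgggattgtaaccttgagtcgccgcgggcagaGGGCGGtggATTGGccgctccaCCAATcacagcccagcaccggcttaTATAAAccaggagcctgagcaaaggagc
H1f6, chr13:23695661-23695810, plus strand: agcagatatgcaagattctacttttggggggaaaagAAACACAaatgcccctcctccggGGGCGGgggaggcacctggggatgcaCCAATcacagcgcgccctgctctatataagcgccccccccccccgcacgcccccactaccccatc
H2ac1, chr13:23934287-23934436, plus strand: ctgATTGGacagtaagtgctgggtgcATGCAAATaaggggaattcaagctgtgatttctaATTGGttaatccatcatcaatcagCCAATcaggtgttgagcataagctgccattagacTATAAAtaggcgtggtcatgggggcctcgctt
H2ac21, chr3:96219735-96219884, plus strand: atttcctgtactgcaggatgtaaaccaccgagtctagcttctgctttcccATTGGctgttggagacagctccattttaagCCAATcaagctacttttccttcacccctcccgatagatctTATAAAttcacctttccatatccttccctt
H2bc6, chr13:23621095-23621244, minus strand: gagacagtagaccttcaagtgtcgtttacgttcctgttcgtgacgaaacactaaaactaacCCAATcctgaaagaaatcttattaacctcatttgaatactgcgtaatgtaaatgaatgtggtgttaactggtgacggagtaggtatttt
H2bc18, chr3:96269550-96269699, plus strand: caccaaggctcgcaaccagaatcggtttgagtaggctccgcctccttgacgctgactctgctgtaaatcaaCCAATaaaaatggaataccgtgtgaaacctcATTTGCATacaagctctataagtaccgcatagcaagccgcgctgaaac
H4f16, chr6:136804432-136804581, minus strand: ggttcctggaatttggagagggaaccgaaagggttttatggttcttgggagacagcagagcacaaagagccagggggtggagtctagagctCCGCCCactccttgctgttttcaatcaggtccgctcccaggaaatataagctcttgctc

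Motifs were counted over the longer RefSeq window, from 250 bases upstream to 50 downstream of the start, and beside all 32851 promoters of that table. CCAAT was found in 7 of 8 members and in 37.4% of all promoters, and H4f16 was the member without it. TATAAA was found in 4 of 8 members (H1f1, H1f5, H2ac1 and H2ac21) and in 13.6% of all promoters. In these 4 the element that lay nearest the start began 28 to 33 bases upstream. ATTTGCAT was found in 2 of 8 members, H2bc18 and H2ac1, against 1.74% of all promoters, AAACACA in H1f5, H1f6 and H2ac1 against 7.18%, and GGGCGG in 4 of 8 against 35.7%. In the H1 promoters the CCAAT that lay nearest the start began 53 bases upstream in H1f5, 56 in H1f1 and 65 in H1f6. A match describes the letters only, and binding was not measured. By base composition, 5 of the 9 intervals (55.6%) were CpG-rich, here a GC content no lower than 0.5 with CpG at 0.6 times its expected number or more, against 54.6% of 20630 intervals. The median observed to expected ratio was 0.787 for the members and 0.672 for all intervals, and the lowest members were the testis genes H1f6 (0.445) and H2ac1 (0.512).

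Over all libraries the tables held 1.49 to 3.03 M promoter reads (M stands for 1000000) and a median of 58 to 108 reads per promoter. Values are mouse reads divided by the spike-in size factor of the library, called calibrated reads here. Replicate 1 stood apart in Kdm2b-CXXC: its calibrated totals were 2.96 M untreated and 3.19 M treated, against 1.75 to 2.12 M in the other 4 libraries of that line. As a check of cell type, 3 to 6 of 9 promoters of embryonic stem cell markers lay above the median promoter, depending on the group, and 0 of 7 fibroblast and 0 of 5 blood marker promoters did. Summed over the list, the marker promoters held 424 to 566, 57.9 to 102 and 25.7 to 53.6 reads per M promoter reads (RPM) in these 3 lists. The 3 promoter intervals of Kdm2a and Kdm2b do not report on the loss of downstream exons and so gave no check of recombination.

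At the members, reads per library ranged from 153 to 409 at H2bc18 and from 4 to 41 at H1f6, and the other 7 promoters held at least 50 reads in every library. In interval sequence only H2ac21 had near-identical copies elsewhere in the genome, here 80 bp or more at 95% identity or more. It had 4, the longest 200 bp at up to 97% identity. Reads that aligned more than once had been removed, which makes the level of H2ac21 uncertain.

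Untreated accessibility was above that of the median promoter at 7 of the 9 members in every line, near it at H2ac1 and below it at H1f6. The median member lay at percentiles 67.1, 77, 75.5 and 72.3 of all promoters in the 4 lines. H2bc18, an H2B gene with the octamer, was the most open, at percentiles 91.8 to 95.8 and 2.73 to 4.03 times the calibrated reads of the median promoter. H1f6, the testis H1 gene, lay at percentiles 24 to 30.6 and at 0.17 to 0.31 times the median promoter. H2ac1, the testis H2A gene, which also holds an octamer, lay at percentiles 46.2 to 53.8.

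**Figure D1:**
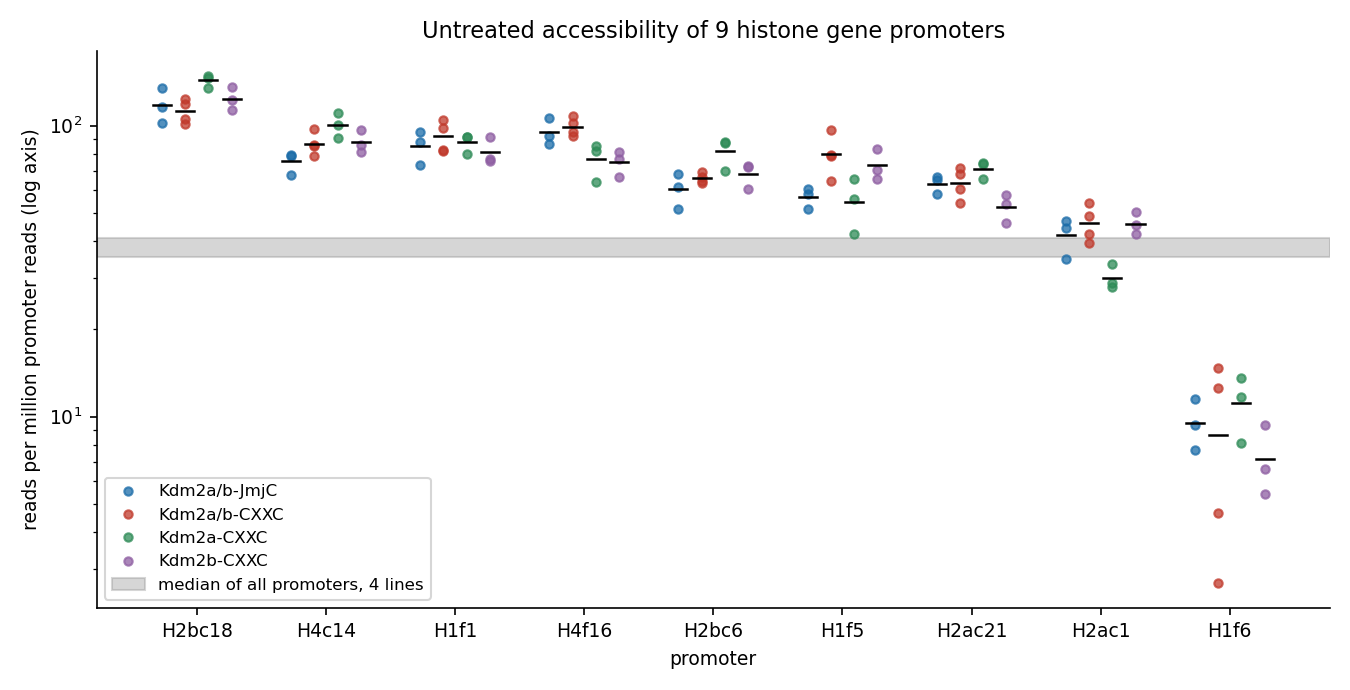
RPM, reads per M promoter reads (log axis), in each untreated library at the 9 histone promoters, ordered by their mean over the 4 lines. Points are libraries coloured by line, black bars are group means, and the grey band spans the median of all promoters in the 4 lines (35.4 to 41.1), which every H1f6 point lies below and every H2bc18 point lies above.

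In RPM, H2bc18 averaged 118 ± 16.8 (SD, n = 3) in Kdm2a/b-JmjC, 112 ± 10.5 (n = 4), 143 ± 6.91 (n = 3) and 124 ± 11.6 (n = 3) in the next 3 lines. H1f6 averaged 9.5 ± 1.91, 8.64 ± 5.86, 11.1 ± 2.78 and 7.12 ± 2.01 in the same order. The ratio of H2bc18 to H1f6 was 14.1 in the median library and ran from 8.09 to 46 over the 26 libraries. H2bc18 was the highest member in 25 of 26 libraries, and H1f6 was the lowest in 26 of 26. The exception was untreated replicate 4 of Kdm2a/b-CXXC, where H1f1 had 153 calibrated reads and H2bc18 had 148.

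Between these ends the order was H4c14, H1f1, H4f16, H2bc6, H1f5, H2ac21 and H2ac1 by the mean over lines, from 87.7 to 41.1 RPM. Several neighbours in it did not differ beyond their spread. H4c14 was above H1f1 in 15 of 26 libraries, and H1f1 above H4f16 in 15 of 26, and in 0 of 4 lines did the untreated libraries of either pair separate. H2bc6 was above H1f5 in 14 of 26 libraries and H1f5 above H2ac21 in 9 of 26. Toward both ends the order held in every library. H2bc18 was above H4c14, H2ac21 above H2ac1, and H2ac1 above H1f6 in 26 of 26 libraries each. Untreated libraries separated in 4 of 4 lines at the first and last of these steps, and in 2 of 4 at H2ac21 over H2ac1.

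Within families the members differed most among the H1 genes. H1f1 was above H1f5 in 23 of 26 libraries, at 0.847 to 1.89 times its reads, and H1f5 was 4.15 to 36 times H1f6. H2bc18 was 1.41 to 2.36 times H2bc6 in every library. H2ac21 was above H2ac1 in every library, by 2.23 to 2.95 times in Kdm2a-CXXC and 1.02 to 1.27 times in Kdm2b-CXXC. The H4 pair had no common order: H4f16 was above H4c14 in 6 of 6 libraries of Kdm2a/b-JmjC and 8 of 8 of Kdm2a/b-CXXC, and H4c14 was above H4f16 in 6 of 6 of Kdm2a-CXXC and 4 of 6 of Kdm2b-CXXC.

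The clusters were set side by side between untreated lines as the log2 ratio of a line's mean RPM to the mean of the other 3 lines. The tables were normalised separately, so these levels were described with no test. The other promoters set beside the members had an untreated mean over the lines of at least 10 RPM. H1f6, at 9.09 RPM, lay below that floor. In Kdm2a-CXXC all 3 members on chromosome 3 were higher than in the other lines, H2bc18 by 0.28, H4c14 by 0.27 and H2ac21 by 0.25. The other 715 promoters measured on chromosome 3 had a median of 0.26 in that line, with middle values from 0.05 to 0.40 between quartiles, so that the 3 histone promoters lay where their chromosome did. After tamoxifen the same line gave 0.15, 0.24 and 0.37 for H2bc18, H4c14 and H2ac21, with a chromosome median of 0.24. The number of copies of chromosome 3 was not tested.

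On chromosome 13 the members ran to both sides in the same line. H2ac1 was at -0.58 and H1f5 at -0.35 in Kdm2a-CXXC, and H1f6 at 0.40 and H2bc6 at 0.33, while the quartiles of the other 522 promoters of chromosome 13 were -0.22 and 0.09. The 35 other promoters within 2 Mb of a member there had quartiles of -0.41 and -0.02, which hold the value of H1f5. The value of H1f6 rested on 20 to 41 reads per untreated Kdm2a-CXXC library. H2ac1 was also at -0.58 in treated Kdm2a-CXXC libraries, whereas H1f5 was at -0.02, H2bc6 at 0.02 and H1f6 at -0.17. Of these 4 promoters, H2ac1 alone was thus at the same distance from the other lines in the treated libraries. H4f16 on chromosome 6 was at 0.18 in the Kdm2a/b-JmjC line, and its value for Kdm2a/b-CXXC was 0.27. The 25 other promoters within 2 Mb of it had medians of -0.37 and 0.56 in these lines, with quartiles of -0.46 and -0.26 and of 0.33 and 0.78, so H4f16 lay outside the quartiles of these neighbours in both. Over the other 758 promoters of chromosome 6 the quartiles were -0.27 and 0.05 and then -0.02 and 0.44, so that H4f16 lay inside them in Kdm2a/b-CXXC.

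**Figure D2:**
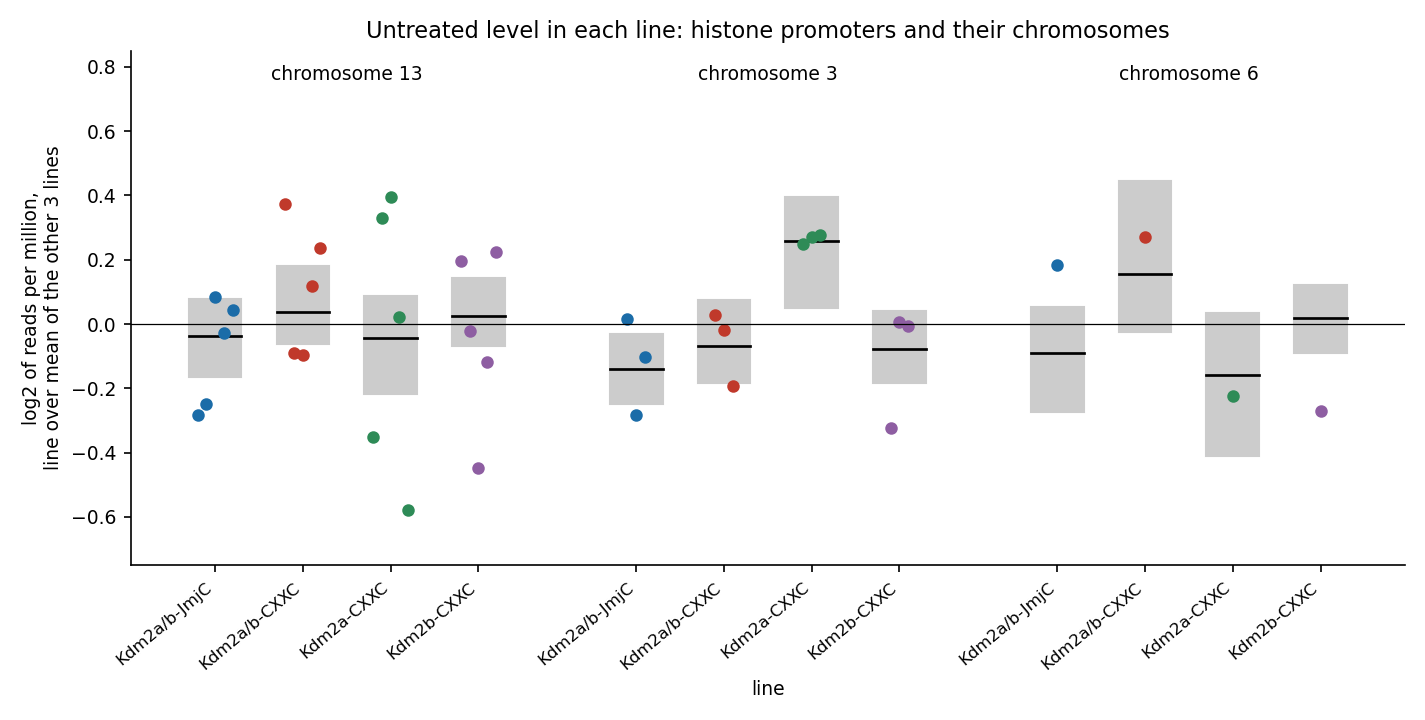
Log2 ratio of untreated RPM in each line to the mean of the other 3 lines, for the histone promoters of each chromosome (points) and for the other promoters of that chromosome (grey box from the lower to the upper quartile, black bar at the median). On chromosome 3 the 3 Kdm2a-CXXC points (0.25 to 0.28) sit at their chromosome's median of 0.26, and on chromosome 13 the Kdm2a-CXXC points run from -0.58 to 0.40. The point at 0.40 is H1f6, which held few reads and lay below the floor of 10 RPM set for the other promoters.

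Treated and untreated cells were then compared within each line, by limma on log2(calibrated reads + 1) over all promoters that passed a filter on low reads. All 9 members passed it in every line. A promoter was called at a Benjamini-Hochberg adjusted p under 0.05 with a fold change over 1.4. In none of the 4 lines was a histone promoter called by limma or edgeR, and DESeq2 called 0 in the 3 lines where it gave members an adjusted p. In Kdm2a/b-JmjC it set an adjusted p for 0 of the 9, so its calls there say nothing about them. Of all promoters tested, 0.0757% of 17174 were called by limma in Kdm2a/b-JmjC, and 0% of 16413, of 17727 and of 17930 in the next 3 lines, so a count of 0 members is also what the background gives. At an unadjusted p under 0.05, limma gave 1, 1, 2 and 0 members in these lines, edgeR and DESeq2 the same numbers.

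A shift of all promoters runs through these values. The median log2 fold change over all promoters tested was -0.21, 0.09, -0.18 and 0.10 in the 4 lines, and over the 9 members it was -0.13, 0.23, -0.27 and 0.08. With TMM scaling, which sets the bulk of promoters to no change, the members' medians were 0.08, 0.15, -0.09 and -0.02. The members' median thus followed the sign of the shift in each line on the spike-in scale, and their direction against the other promoters was reported on the TMM scale as well.

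**Figure D3:**
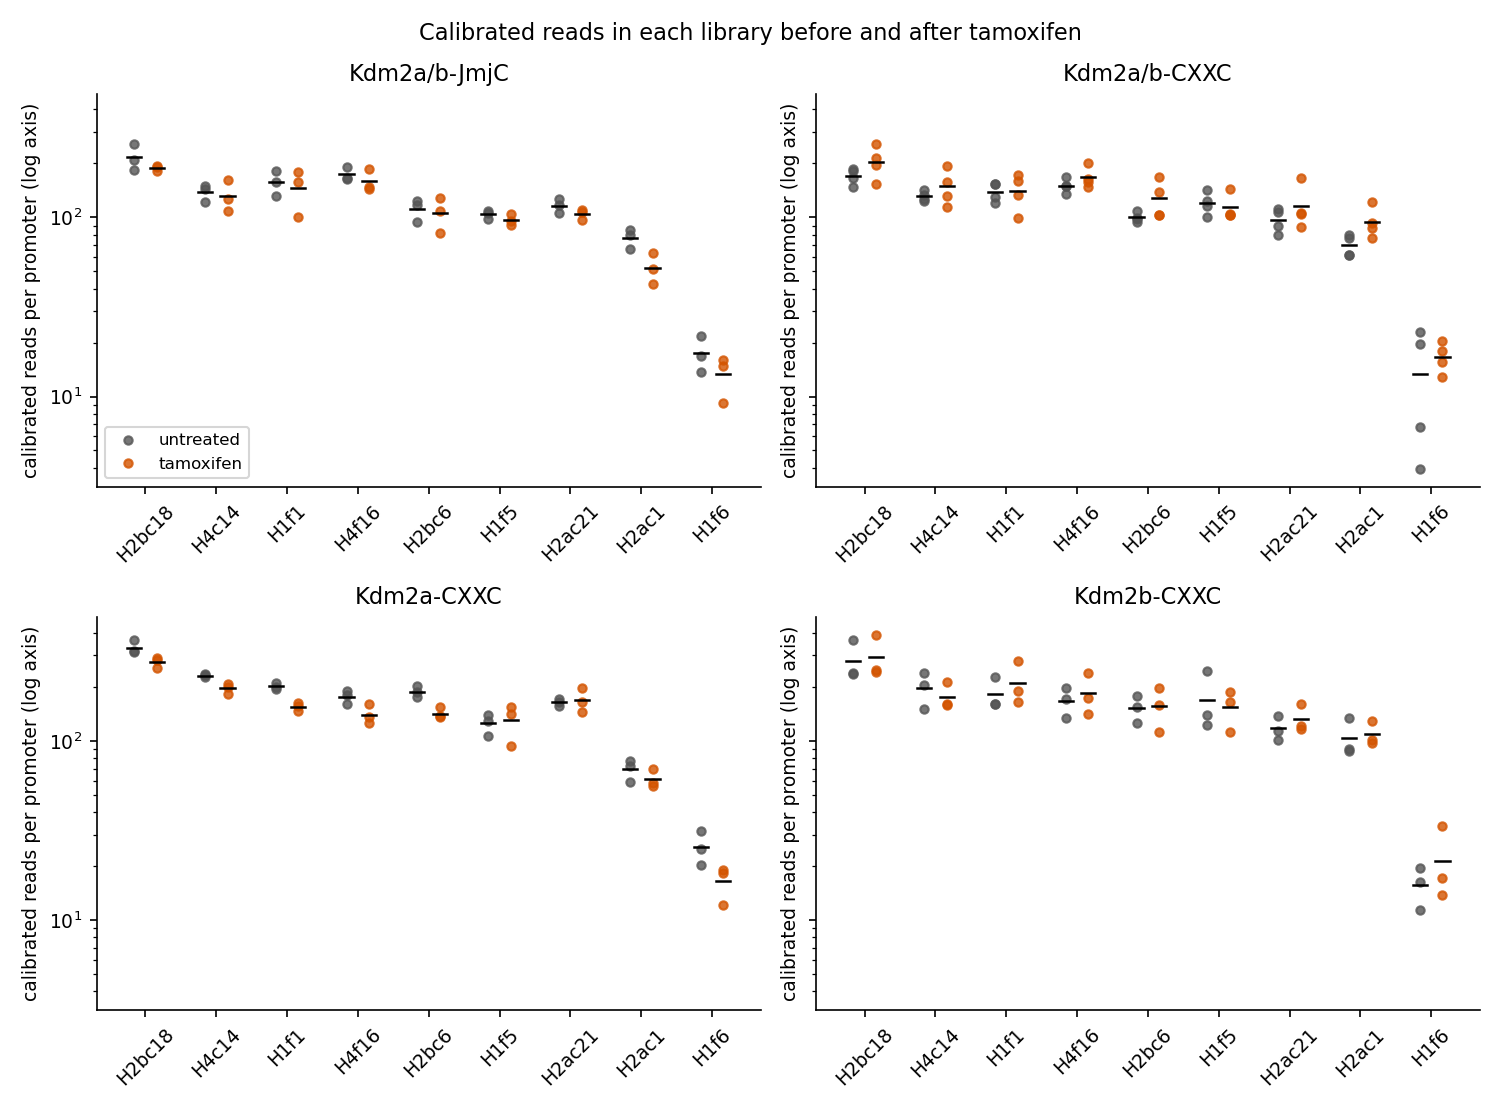
Calibrated reads (log axis) in every untreated (grey) and tamoxifen-treated (orange) library of the 4 lines at the 9 promoters, with black bars at the group means. The groups overlap at most promoters. All treated points lie below all untreated ones at H2ac1 in Kdm2a/b-JmjC, by a narrow gap (66.2 against 63.0), and at 6 promoters in Kdm2a-CXXC. Of these 6, the gap is also narrow at H4f16 (160.1 against 159.5) and H1f6 (20.3 against 19.0).

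In Kdm2a/b-JmjC, where the long, demethylating forms of both proteins are lost, H2ac1 was the member with the smallest unadjusted limma p. It had 84.7, 66.2 and 79.7 calibrated reads in the untreated libraries and 63.0, 42.3 and 51.2 in the treated ones. Every treated library lay below every untreated one, as it did for 23.2% of all promoters on this scale. The log2 fold change was -0.56 (SE 0.22, 95% interval -0.99 to -0.13), with an unadjusted p of 0.011 and an adjusted p of 0.14 by limma, so the promoter was not called. Lower values with an unadjusted p under 0.05 were found at 1 of 9 members and at 20.3% of all promoters. On the TMM scale the value was -0.36 with an unadjusted limma p of 0.091, and the groups overlapped.

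The other members of Kdm2a/b-JmjC overlapped between groups. H2bc18 had 184, 257 and 209 calibrated reads untreated and 194, 182 and 191 treated, so its treated libraries lay inside or just below the untreated range. H4f16 had 166, 164 and 191.5 untreated and 186, 144 and 148 treated. The remaining log2 fold changes lay between -0.38 at H1f6 (SE 0.42) and -0.08 at H2bc6 (SE 0.18). All 9 were below 0, as were 83.4% of all promoters, and on the TMM scale 2 of 9 were (H1f6 and H2ac1), against 50.6% of all.

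In Kdm2a/b-CXXC, where both proteins lose the ZF-CxxC domain, H2ac1 was on the other side. The labels of 2 treated genomic DNA libraries of this line name both treatments, and such DNA enters the size factors. Its effect on the calibrated values was not tested. H2ac1 had calibrated reads of 80.0, 61.8, 76.8 and 62.0 untreated and 122, 92.5, 87.0 and 77.0 treated, with the lowest treated library inside the untreated range. The log2 fold change was 0.42 (SE 0.21, 95% interval 0.01 to 0.82), with an unadjusted p of 0.045 and an adjusted p of 0.996 by limma. On the TMM scale it was 0.33, with an unadjusted limma p of 0.032 and an adjusted p of 0.47, and the groups did not overlap, which held for 2.37% of all promoters in this direction. Higher values with an unadjusted p under 0.05 on the spike-in scale were found at 1 of 9 members and at 3.58% of all promoters. Whether the response of H2ac1 differed between this line and Kdm2a/b-JmjC was not tested.

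H2bc6 had the next smallest p in this line. It held 97.8, 99.6, 109 and 93.9 calibrated reads untreated and 168, 138, 103 and 103.5 treated. On this scale the higher values came from treated replicates 1 and 2, and the other treated libraries lay inside the untreated range. In RPM treated replicate 4 also lay above the untreated libraries, at 78.0 against 63.7 to 69.4. The log2 fold change of H2bc6 was 0.33 (SE 0.19), with an unadjusted limma p of 0.092. With TMM scaling it was 0.24, with an unadjusted limma p of 0.068, and the groups overlapped. H1f6 had 4.0, 22.9, 19.7 and 6.8 calibrated reads untreated against 18, 20.4, 15.6 and 12.8 treated, with 2 untreated libraries far below the rest. Its log2 fold change was 0.57 (SE 0.39) by limma and 0.32 by edgeR and by DESeq2. Without untreated replicate 1 it was 0.16 by limma. Values below 0 were found at H1f5 and H1f1 alone, which is 2 of 9 members against 32% of all promoters. The log2 fold changes of H1f5 and H1f1 were -0.09 (SE 0.19) and -0.00 (SE 0.19), and H1f1 was at 0.014 by edgeR and by DESeq2.

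In Kdm2a-CXXC, where KDM2A alone is altered, 6 of the 9 members had every treated library below every untreated one, against 13.4% of all promoters. H1f1 had 194, 211 and 201 calibrated reads untreated and 156, 146 and 162 treated. H2bc6 had 186, 202 and 175 untreated and 153, 135.5 and 137 treated. H4c14 had 235, 232 and 227 untreated and 199.6, 182 and 208 treated. In these 3 the gap between the groups was wider than the spread within the untreated libraries at H1f1 and H4c14 and narrower at H2bc6. H2bc18 had 315, 311 and 366 untreated and 254.5, 281 and 288 treated. H4f16 and H1f6 made up the 6 by narrow gaps. The lowest untreated and highest treated values were 160.1 and 159.5 at H4f16 and 20.3 and 19.0 at H1f6.

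By limma none of the 6 passed the adjusted threshold. The smallest unadjusted p were 0.037 at H2bc6 (log2 fold change -0.40, SE 0.19, 95% interval -0.78 to -0.02) and 0.045 at H1f1 (-0.38, SE 0.19, interval -0.75 to -0.01), both with an adjusted p of 0.59. Lower values with an unadjusted p under 0.05 were found at 2 of 9 members and at 8% of all promoters. Relative to the other promoters the 6 were less apart: on the TMM scale 0 of 9 members had treated libraries all below untreated ones, against 5.78% of all, and H2bc6 and H1f1 were at -0.22 and -0.20 with an unadjusted limma p of 0.11 each. H1f5 and H2ac21 were near 0 on the spike-in scale, at 0.03 each with SEs of 0.20 and 0.19. H2ac21 held 157, 171 and 164 calibrated reads untreated and 146, 165 and 197 treated, and on the TMM scale its treated libraries all lay above the untreated ones, as for 5.36% of all promoters.

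In Kdm2b-CXXC, where KDM2B alone is altered, the spike-in scale varied most between replicates. H2bc18 had 363, 237 and 239 calibrated reads untreated and 390.0, 249 and 241 treated, with replicate 1 highest in both groups. The same held at H1f1, with 227, 160.0 and 159.8 untreated and 280, 166 and 189 treated. Without the treated replicate 1 the median log2 fold change of the members was -0.08, and without the untreated one it was 0.26, with 0 members called either way. The smallest unadjusted p among the members were 0.48 at H1f6 (log2 fold change 0.35, SE 0.50) and 0.60 at H1f1 (0.20, SE 0.37) by limma. The standard errors of the other members were 0.36 to 0.37, and their 95% intervals together ran from -0.88 to 0.92. On the spike-in scale and without a replicate block, this line could thus not tell a change of 1.4-fold either way from none.

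The TMM scale narrowed this line to standard errors of 0.10 to 0.16 outside H1f6. H4c14 was then the lowest member at -0.25 (SE 0.12, 95% interval -0.49 to -0.01), with an unadjusted limma p of 0.038 and an adjusted p of 0.62, and its treated libraries all lay below the untreated ones, as for 6.3% of all promoters. On the spike-in scale H4c14 had 240, 150.1 and 205 calibrated reads untreated and 212, 158 and 160 treated, with overlap. No other member of this line had a TMM interval that left out 0.

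**Figure D4:**
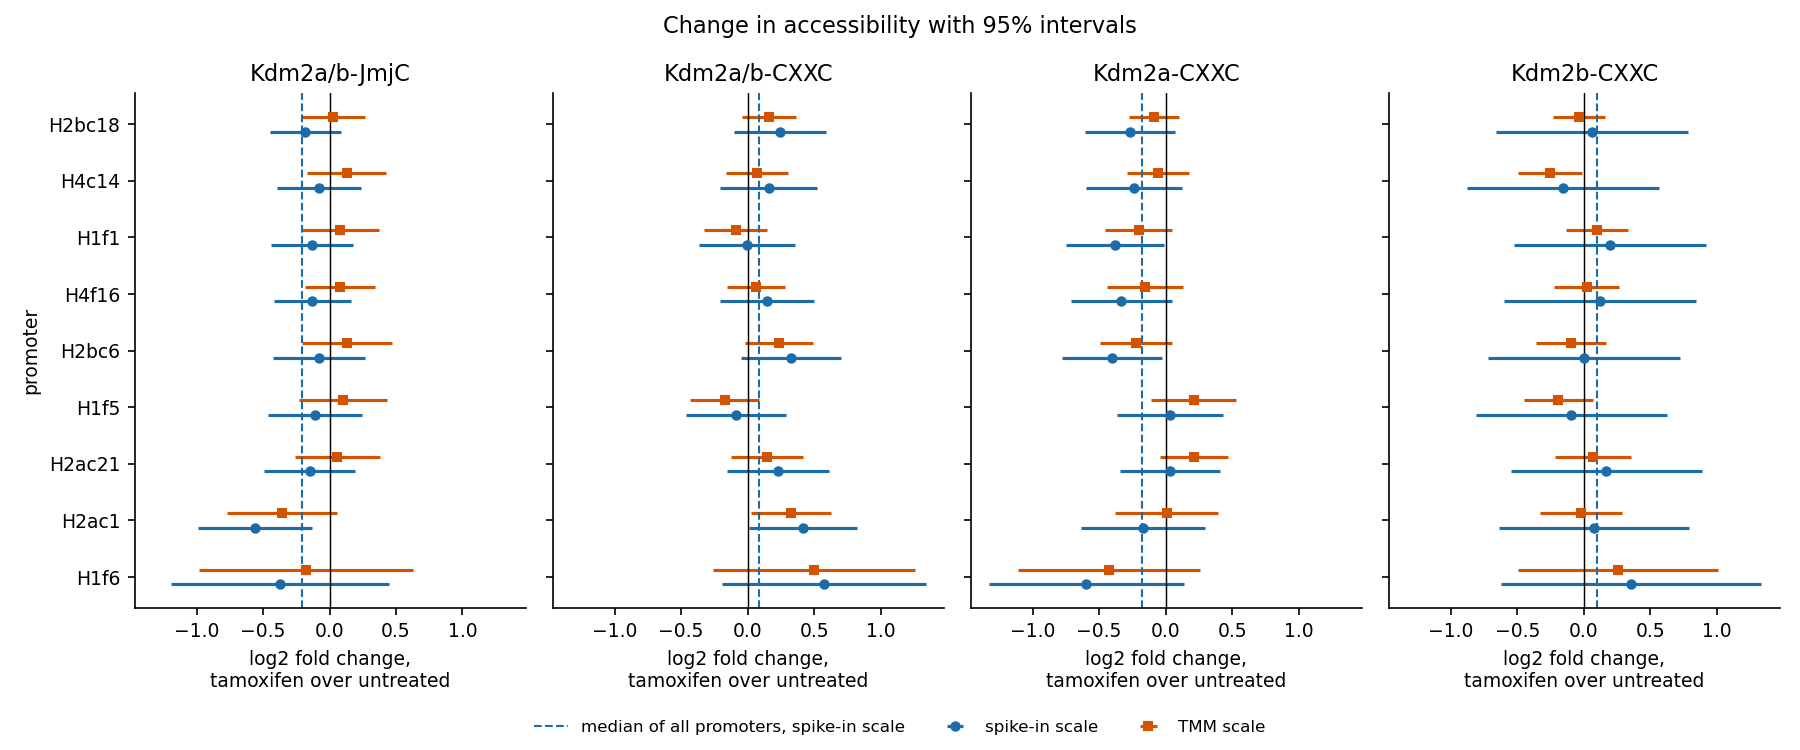
Log2 fold change (tamoxifen over untreated) of each histone promoter in the 4 lines with its 95% interval, on the spike-in scale (blue circles) and the TMM scale (orange squares), beside the median of all promoters on the spike-in scale (dashed line). On the spike-in scale the intervals leave out 0 at H2ac1 in Kdm2a/b-JmjC and Kdm2a/b-CXXC and at H2bc6 and H1f1 in Kdm2a-CXXC, and none of these was called after adjustment.

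Set side by side, each of the 9 members had values on both sides of 0 among the 4 lines. H2ac1 had log2 fold changes of -0.56, 0.42, -0.17 and 0.08 in the 4 lines. H2bc18, the most open, had -0.18, 0.25, -0.27 and 0.06. H4f16 had -0.13, 0.15, -0.33 and 0.12. In these 3 the sign was that of the median over all promoters in each line. H1f5, at -0.11, -0.09, 0.03 and -0.09, had that sign in Kdm2a/b-JmjC alone, and H4c14, at -0.08, 0.16, -0.24 and -0.15, had it in all lines but the last.

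By cluster, the median log2 fold changes were -0.13, 0.33, -0.38 and 0.08 on chromosome 13 and -0.15, 0.23, -0.24 and 0.06 on chromosome 3 in the 4 lines. On the TMM scale they were 0.08, 0.24, -0.20 and -0.02 on chromosome 13 and 0.06, 0.15, -0.06 and -0.04 on chromosome 3. The difference between the clusters was not tested. In RPM, the sum of the 3 members on chromosome 3 divided by the sum of the 5 on chromosome 13 was 1.01 ± 0.088 untreated and 1.04 ± 0.125 treated in Kdm2a/b-JmjC (SD, n = 3 each). It was 0.902 ± 0.0962 and 0.948 ± 0.0733 in Kdm2a/b-CXXC (n = 4 each), 1.2 ± 0.111 and 1.27 ± 0.123 where KDM2A alone was altered, and 0.959 ± 0.0458 and 0.934 ± 0.118 where KDM2B alone was. The treated and untreated groups differed by less than their SDs in every line. All 9 members together held 606 ± 30.7 RPM untreated and 631 ± 24.7 treated in Kdm2a/b-JmjC. The next 3 lines held 655 ± 7.37 and 690.4 ± 10.4, 657 ± 55.2 and 636 ± 80.1, and 615 ± 31.4 and 596 ± 27.2. In RPM these sums separated in Kdm2a/b-CXXC alone, at 648 to 664 untreated and 679 to 700.0 treated. In calibrated reads they overlapped in that line, at 950 to 1026 and 901 to 1426, and separated in Kdm2a-CXXC, at 1491 to 1554 untreated and 1213 to 1362 treated. The line that separated thus differed between the scales. How often sums of other sets of 9 promoters separate was not computed, so these separations are not a result about histone promoters.

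Genes that act on histone supply were read from 3 lists. The list of histone locus and processing factors (NPAT, HINFP, SLBP, the U7 snRNP and 3′ processing proteins, cyclin E and transcription factors of histone promoters) had 26 promoters, the list of replication-independent histones had 10 and that of histone chaperones had 20. Their median percentile in untreated cells was 83.7 to 90.4 over lists and lines, above the 67.1 to 77 of the histone promoters. In none of the lists and lines was a promoter called by limma.

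In Kdm2a/b-JmjC, lower values with an unadjusted limma p under 0.05 were found at 8 of 26 factors, 5 of 10 replication-independent histones and 5 of 20 chaperones, beside 20.3% of all promoters, and higher values at 0 in each list. The median log2 fold changes of the lists were -0.22, -0.33 and -0.20. On the TMM scale the lower counts were 0 of 26, 2 of 10 and 1 of 20, beside 2.89% of all promoters, and the medians were -0.01, -0.12 and 0.01. H3f3a, which encodes the replacement histone H3.3, went from 340 ± 27.1 to 245 ± 30.1 calibrated reads (SD, 3 libraries each), and its log2 fold change was -0.47 (SE 0.12, limma adjusted p = 0.051). Hira, a chaperone that deposits H3.3, went from 209 ± 28.9 to 143 ± 27.7, with -0.55 (SE 0.15, limma adjusted p = 0.054). The fold change of H3f3a was also under 1.4. On the spike-in scale Hira was called by edgeR (adjusted p = 0.042), and leaving out 1 library gave adjusted limma p of 0.017 to 0.21 for H3f3a and 0.012 to 0.21 for Hira. Relative to the other promoters neither was near a call: on the TMM scale H3f3a was at -0.27 and Hira at -0.34, each with a limma adjusted p of 0.87. Eri1, a nuclease of the histone mRNA end, had the smallest p of the factors (-0.47, SE 0.17, limma adjusted p = 0.12).

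In the other lines the lists gave few values of this kind. In Kdm2a/b-CXXC, 1 promoter per list was higher at an unadjusted limma p under 0.05 (Srrt, Macroh2a2 and Asf1a) and 0 were lower, beside 3.58% higher over all promoters. With TMM scaling 3 factors, 1 replication-independent histone and 1 chaperone were higher and 2, 2 and 1 were lower, beside 4.75% and 4.97% of all promoters. In Kdm2a-CXXC, 1 factor (Ccne1, cyclin E1) and 2 chaperones were lower, beside 8% of all promoters, with Chaf1a, the large subunit of the replication-coupled chaperone CAF-1, at -0.39 (SE 0.18, limma adjusted p = 0.58). With TMM scaling 1 chaperone was lower there, beside 3.25% of all promoters, and 1 factor and 1 replication-independent histone were higher, beside 2.93%. H1f10 had the smallest p of the replication-independent histones in this line on the spike-in scale, at -0.38 (SE 0.22). In Kdm2b-CXXC 0 promoters of the 3 lists passed on the spike-in scale, and the smallest p in each list belonged to Eri1, H1f0 and Asf1a. With TMM scaling 1 factor and 1 chaperone were lower there, beside 4.14% of all promoters, and 2 chaperones were higher, beside 3.6%. Asf1a was at 0.33 on that scale, with an unadjusted limma p of 0.0042 and an adjusted p of 0.46.

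Npat, the coactivator of the histone clusters, had log2 fold changes of -0.12 (SE 0.13), 0.16 (SE 0.18), 0.04 (SE 0.17) and 0.21 (SE 0.37) in the 4 lines. Hinfp, the H4 promoter factor, had -0.10, 0.12, -0.16 and 0.09, and Slbp, the stem-loop binding protein, had -0.26, 0.12, -0.19 and 0.05. None was called. On the TMM scale their values lay between -0.05 and 0.22, the highest being Npat in Kdm2a-CXXC with an unadjusted limma p of 0.025.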

How the data were processed

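ATAC-seq libraries of 4 mESC lines, untreated or tamoxifen-treated, were assigned to groups from the sample labels. Another 26 libraries of genomic DNA, which bring the samples to 52, were not used. The authors aligned reads with Bowtie 2 to mm10 joined with dm6, removed reads that aligned more than once, PCR duplicates (SAMtools), mitochondrial reads and blacklisted regions, and counted reads over promoter intervals. The deposited signal is mouse reads divided by a DESeq2 size factor made by the authors from Drosophila reads and the matched genomic DNA, 1 table per line. Deposited columns of the authors' comparison (means, fold changes, errors, p-values) were not used. Tool versions are not given in the sources used here.

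Whole reads were recovered from the steps between values (100% whole, size factors 0.718 to 1.41). No molecular identifiers are described. The limma tests used the spread between libraries and no count model, while edgeR and DESeq2 fitted models of read counts. The main test was limma 3.58.1 with a mean-variance trend (R 4.3.3) on log2(value + 1) after filterByExpr of edgeR 4.0.16, within each table, adjusted over all promoters tested. The 1 added before the log draws the fold change of low promoters towards 0, but limma values at such promoters were not always the smaller ones. At H1f6 in Kdm2a/b-CXXC limma gave 0.57, and edgeR and DESeq2 gave 0.32 each. Alternatives were TMM and median-of-ratios scaling, no filter, a pseudocount of 5, edgeR's quasi-likelihood test and DESeq2 1.42.0 on recovered reads, the replicate number as a block, and leaving out each library. The fits were tested on simulated data. Members were matched through RefSeq (99.1% of identifiers had a symbol); copies of intervals were searched with BLAST+ 2.17.0.

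The members, gene lists and rules were chosen with earlier results of these data known. The rule for named genes took, per histone family, the 2 members with the highest and the 1 with the lowest untreated level, every member outside the largest cluster, the 2 members with the smallest unadjusted p per line where none was called, and the pairs of overlapping intervals, of which there were none. These parts name all 9 members. It added Npat, Slbp and Hinfp, and per line and list the gene with the smallest unadjusted p.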

Additional observations from a re-analysis of the deposited data

Results flagged for a closer look

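Groups of 4 libraries, which only Kdm2a/b-CXXC has, were checked for a library far from the others at the members and the named genes. Of 30 groups checked, 1 held such a library: H1f5 in treated cells, where replicate 1 had 144 calibrated reads and the other 3 libraries had 103.5 to 103.7. In RPM replicates 1 to 4 had 70.8, 61.7, 69.0 and 78.0, so replicate 1 lay within the range of the others. The calibrated total of that library was also the largest of the group, at 2.04 M against 1.33 to 1.68 M. Chance alone marks about 1 in 20 such groups. H1f5 encodes the linker histone H1.5, and without that library its promoter stayed uncalled. No member had all libraries higher in 1 line and all libraries lower in another on the spike-in scale.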

How the results depend on the processing

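The count of called histone promoters was 0 under all 12, 15, 13 and 13 alternatives that gave adjusted values for them run in Kdm2a/b-JmjC, Kdm2a/b-CXXC and the lines altered in KDM2A or KDM2B alone, and the count at an unadjusted p under 0.05 ran from 0 to 1, 0 to 3, 0 to 4 and 0 to 1. Over all promoters, Kdm2a/b-JmjC gave 13 calls by limma, 71 with a pseudocount of 5, 114 by edgeR and 12 by DESeq2 on recovered reads, 62 with the replicate block, and 0 with TMM scaling, with median-of-ratios scaling or without the filter. Without tamoxifen replicate 1 it gave 607 and without another library 0 to 59, so 1 library moves the background there, and 0 members were called each time. Without tamoxifen replicate 3 Kdm2a-CXXC gave 43, and without tamoxifen replicate 1 or 4 Kdm2a/b-CXXC gave 5 and 8, against 0 in each. In the other 3 lines edgeR and DESeq2 called 0 promoters, as limma did. TMM and median-of-ratios scaling gave 17 calls each in Kdm2a/b-CXXC and 1 each in Kdm2b-CXXC, against 0. With 3 or 4 libraries per group a missing call does not show that a promoter stayed the same.

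Scaling set the direction of small values. The members' median was 0.078 with TMM and 0.080 with median-of-ratios scaling, pairs following this order, in Kdm2a/b-JmjC and -0.088 and -0.086 in Kdm2a-CXXC. In Kdm2a/b-JmjC, values turned above 0 at H1f5 (0.10 and 0.10), H2bc6 (0.13 and 0.13), H1f1 (0.078 and 0.080), H2ac21 (0.059 and 0.061), H4c14 (0.13 and 0.13), H2bc18 (0.028 and 0.030), H4f16 (0.079 and 0.081), Npat (0.090 and 0.092) and Hinfp (0.11 and 0.11). In Kdm2a-CXXC they turned above 0 at H2ac1 (0.0066 and 0.0084) and Hinfp (0.018 and 0.020). In Kdm2b-CXXC they turned below 0 at H2bc6 (-0.098 and -0.0998), H2ac1 (-0.018 and -0.019), H2bc18 (-0.037 and -0.038), Slbp (-0.054 and -0.055) and Hinfp (-0.014 and -0.015). Beside these, H1f1 in Kdm2a/b-CXXC was 0.014 by edgeR and 0.014 by DESeq2. The cause was not tested. Hira in Kdm2a/b-JmjC was called with a pseudocount of 5 (limma adjusted p = 0.045).

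With 1 library left out, the members' median ran from -0.22 to -0.087, 0.057 to 0.35, -0.30 to -0.25 and -0.082 to 0.26 in the 4 lines, and their untreated percentile from 66.1 to 68.7, 73.5 to 79.8, 73.2 to 78.7 and 71.6 to 72.7. Among only the promoters past the filter the percentile was 60.5, 71.0 and 68.1 in Kdm2a/b-JmjC, Kdm2a/b-CXXC and Kdm2b-CXXC. Leaving out 1 library turned the sign of H1f1 (-0.30 to 0.11), H2bc6 (-0.22 to 0.095), H4c14 (-0.24 to 0.053) and Hinfp (-0.22 to 0.016) in Kdm2a/b-JmjC. It turned H1f1 (-0.11 to 0.15) and Hinfp (-0.018 to 0.24) in Kdm2a/b-CXXC, and H1f5 (-0.11 to 0.25), H2ac21 (-0.079 to 0.14) and Npat (-0.15 to 0.19) in Kdm2a-CXXC. In Kdm2b-CXXC the ranges were -0.024 to 0.36 at H1f1, -0.29 to 0.21 at H1f5, -0.0020 to 0.61 at H1f6, -0.050 to 0.28 at H2ac1, -0.16 to 0.26 at H2bc18, -0.19 to 0.22 at H2bc6, -0.082 to 0.29 at H4f16, -0.16 to 0.26 at Hinfp, -0.021 to 0.40 at Npat and -0.16 to 0.23 at Slbp.

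Across promoters, the deviations of same-numbered libraries correlated at -0.0090 to 0.073 over 13 pairs. This check cannot see an offset shared by whole libraries. Calibrated totals of replicates 1 to 3 were 2.13, 2.30 and 2.51 M untreated and 1.76, 2.04 and 2.33 M treated in Kdm2a-CXXC. In Kdm2b-CXXC they were 2.96, 1.75 and 2.12 M and then 3.19, 1.98 and 2.11 M. Both groups thus had the same replicate order in these lines, and not in the other lines. Whether same-numbered libraries are pairs remains unknown. With the replicate number as a block, 0 members were called in each line, the members at an unadjusted p under 0.05 were 1, 1, 4 and 0 against 1, 1, 2 and 0, and calls over all promoters were 62, 0, 188 and 5 against 13, 0, 0 and 0. No member intervals overlapped, so keeping 1 interval per overlapping group gave no other value. Of the values of single genes over all alternatives, 723 kept direction and side of the threshold, 70 changed sign and 6 became called.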
